A study of Mus musculus with 12 samples.

Results

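Senescent-only BMAL1 regions at promoters are stretches of the mouse genome that lie at a gene start and were called as bound by BMAL1 in senescent fibroblasts but in no library of control fibroblasts. Peaks from the 6 BMAL1 peak lists were merged wherever they overlapped by 1 bp or more. A merged region was kept when it held a peak in at least 2 of the 3 senescent libraries, held a peak in 0 of the 3 control libraries, and had its midpoint within 1000 bp of a protein-coding start site (GENCODE M21). The members were thus chosen by the peak calls themselves. Of 16818 merged regions, 5699 were at promoters and 541 of these were senescent-only. That is 9.49% of the promoter regions. The mirror rule, peaks in at least 2 control and 0 senescent libraries, kept 99 promoter regions, or 1.74%.

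The cells were primary mouse adult fibroblasts (MAFs), cultured at 3% oxygen. A 20 Gy dose of X-rays made the cells of the senescent group, while the control group had a sham exposure. Per the study's methods, the irradiated cells were kept in culture for weeks after the dose. Both groups were then treated with 100 nM dexamethasone for 2 hours, which aligns the clocks of the cells in a dish. They were collected 12 hours later, so each group was seen at a single time. The study reports a longer Bmal1 period and a larger rise of BMAL1 protein in senescent cells. Clock phase and BMAL1 abundance at collection thus need not have been equal in the groups. Chromatin immunoprecipitation with sequencing (ChIP-seq) for BMAL1 gave 3 libraries per group, and the labels do not say whether these came from separate cultures, so any p-value measures the spread between libraries, which may be technical. Peak lists carry no expression, so markers of fibroblasts could not be checked here.

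BMAL1 is a transcription factor of the molecular clock. It binds DNA as a heterodimer with CLOCK at the E-box, a short palindromic sequence, and switches on the Period and Cryptochrome genes, whose products in turn inhibit BMAL1 and CLOCK. The AP-1 site is a different short sequence, bound by dimers of the FOS and JUN families, which respond to growth factors and stress.

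The DNA under the senescent-only promoter regions shows what the peaks sit on. The windows printed here are from GRCm38/mm10, read 5′ to 3′ on the strand of the gene, with the E-box CACGTG in capitals. The first group comes from the best-ranked members that held an E-box within 100 bp of the peak centre and is aligned on it, to show the DNA around the site. They lie at chr5:90890917-90890972 for Cxcl1, plus strand, chr5:18360501-18360556 for Gnai1, minus strand, chr4:59438767-59438822 for Susd1, minus strand, and chr10:67912673-67912728 for Zfp365, minus strand.
Cxcl1: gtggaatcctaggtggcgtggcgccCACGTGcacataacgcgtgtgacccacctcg
Gnai1: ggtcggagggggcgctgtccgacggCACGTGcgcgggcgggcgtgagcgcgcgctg
Susd1: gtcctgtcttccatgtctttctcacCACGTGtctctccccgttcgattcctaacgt
Zfp365: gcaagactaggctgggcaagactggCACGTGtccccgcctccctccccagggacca

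The E-boxes printed start 296 bp upstream of the start site of Cxcl1, 174 bp upstream of Gnai1, 162 bp upstream of Susd1 and 39 bp upstream of Zfp365. Not all best-ranked members had it upstream. It lay downstream at Banf1 (82 bp), Pabpc4 (40 bp) and Tmem120a (2 bp), and upstream at Hoxc13, Papola and Rasal1. Several members held more than 1 E-box, and the next group shows the closest pair in each of 3 such regions, again with E-boxes in capitals. They lie at chr15:102920895-102920949 for Hoxc13, chr6:90462333-90462424 for Klf15 and chrX:153139907-153139975 for Rragb, all on the plus strand.
Hoxc13: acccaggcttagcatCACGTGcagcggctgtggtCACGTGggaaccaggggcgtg
Klf15: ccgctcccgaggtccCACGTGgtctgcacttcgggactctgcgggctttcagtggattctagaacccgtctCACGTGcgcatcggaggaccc
Rragb: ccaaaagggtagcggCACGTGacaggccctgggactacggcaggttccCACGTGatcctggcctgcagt

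The gap between the paired E-boxes was 13 bp at Hoxc13, 50 bp at Klf15 and 27 bp at Rragb. A smaller number of members held the AP-1 site, TGACTCA or TGAGTCA, shown in capitals in the last group. Those windows lie at chr3:90587843-90587899 for S100a3, plus strand, chr4:152325631-152325687 for Rpl22, plus strand, and chr17:23676685-23676741 for Tnfrsf12a, minus strand.
S100a3: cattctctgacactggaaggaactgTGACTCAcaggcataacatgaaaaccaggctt
Rpl22: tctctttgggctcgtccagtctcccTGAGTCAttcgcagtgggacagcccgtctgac
Tnfrsf12a: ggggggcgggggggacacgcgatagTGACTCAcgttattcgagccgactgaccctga

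The 6 peak lists differed in length. The control lists held 2794, 3349 and 10601 peaks, and the senescent lists held 4220, 9805 and 5053. Read depth is not given by a peak list, so a region without a peak is a region where no peak was called, not one shown to be free of BMAL1. Of each control list, 31.6% to 32.9% of the peaks were at promoters, against 39.9% to 45.0% of each senescent list.

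A further 602 promoter regions were called in at least 2 senescent libraries and in exactly 1 control library, and that library was control 3, the longest list, for 554 of them. Without control 3 the same rule kept 1100 regions in place of 541. Without senescent 1 it kept 391, without senescent 2, the longest senescent list, 207, and without senescent 3 it kept 322. With a senescent library left out, both remaining ones had to call a region, which by itself lowers the count. When every list was cut to its 2794 best-scoring peaks, the length of the shortest, 313 regions met the rule.

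To see whether the regions repeated in libraries that did not choose them, the rule was applied to pairs of senescent and pairs of control libraries, and the remaining library of each group was read. In all 9 such choices the held-out senescent library called more of the chosen regions than the held-out control library. Such shares also depend on how many promoter peaks a list holds. Beside the 5699 merged promoter regions, senescent 1, 2 and 3 held 1703, 4413 and 2015 promoter peaks. Control 1, 2 and 3 held 888, 1102 and 3351. A list with more promoter peaks can call more of any chosen regions, and no share was corrected for this. With control 1 or control 2 held out, the control share was 3.69% to 5.91%, while the senescent share was 48.8% to 49.8% in senescent 1, 90.9% in senescent 2 and 58.1% to 58.2% in senescent 3. Control 1 and control 2 had the shortest lists, and those choices had already required no peak in control 3, the longest list. A low control share was thus partly built into them. The 9 choices also share libraries, so their count is not independent support. With control 3 held out, the control share was 52.3% to 55.6%. For senescent 1 against control 3 the values were 53.7% (440 of 820, 95% Wilson interval 50.2 to 57.0%) and 52.3% (429 of 820, 48.9 to 55.7%), whose intervals overlapped. The long list of control 3 thus held about as many of those regions as senescent 1 did. The mirror choice, regions called in 2 control and neither of 2 senescent libraries, was also read in the held-out pair. The held-out control library called more of them in 7 of 9 choices. In the other 2, the long list of senescent 2 called 55.0% against 17.8% in control 1 and 56.0% against 35.7% in control 2. The longest list of either group thus called many regions in which the other 2 lists of its group had no peak. All intervals given here cover counting error only.

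**Figure D1:**
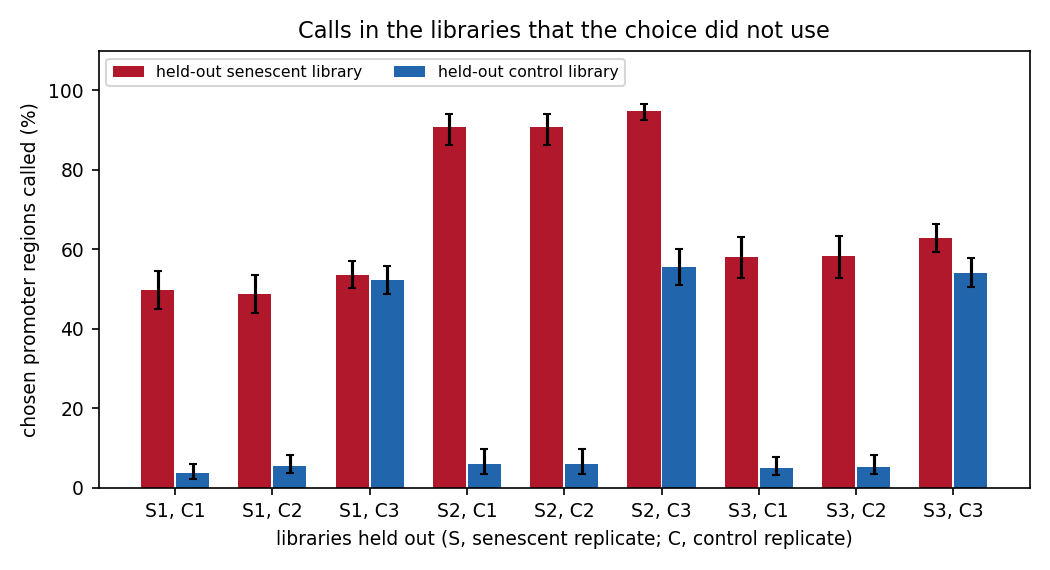
Share of the chosen promoter regions (%, vertical axis) with a peak in the held-out senescent library (red) and the held-out control library (blue), for each pair of libraries left out of the choice (horizontal axis). Bars are shares and error bars 95% Wilson intervals. The shares are not corrected for the number of promoter peaks in each list. The blue bars stay at or below 5.91% except where control 3 was held out, where they reach 52.3% to 55.6%.

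Among the 541 regions, 184 (34.0%) were called in all 3 senescent libraries. A further 202 were called in senescent 2 and 3, 136 in senescent 1 and 2, and 19 in senescent 1 and 3. Senescent 2, the longest list, thus called 522 members (96.5%), senescent 3 called 405 (74.9%) and senescent 1 called 339 (62.7%). They were spread over the genome, with 53 on chromosome 11, 48 on chromosome 7 and 42 on chromosome 2, and 2 on the X chromosome.

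Most senescent-only promoter peaks were modest ones. Ranking each list by its peak score, with 0% as the best peak, the median member stood at 63.1% of the list in senescent 1 (n = 339), 45.0% in senescent 2 (n = 522) and 60.3% in senescent 3 (n = 405). Promoter regions called in all 6 libraries stood at medians of 15.6%, 5.68% and 11.8% in the same lists (n = 488). No member reached the top 1% of any senescent list, the best standing at 6.04%, 1.81% and 5.05%. Member peaks were also narrow, with median widths of 222, 212 and 208 bp against 484, 572.5 and 503.5 bp. Rank and width follow from the calls that chose the regions and are given as a description.

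**Figure D2:**
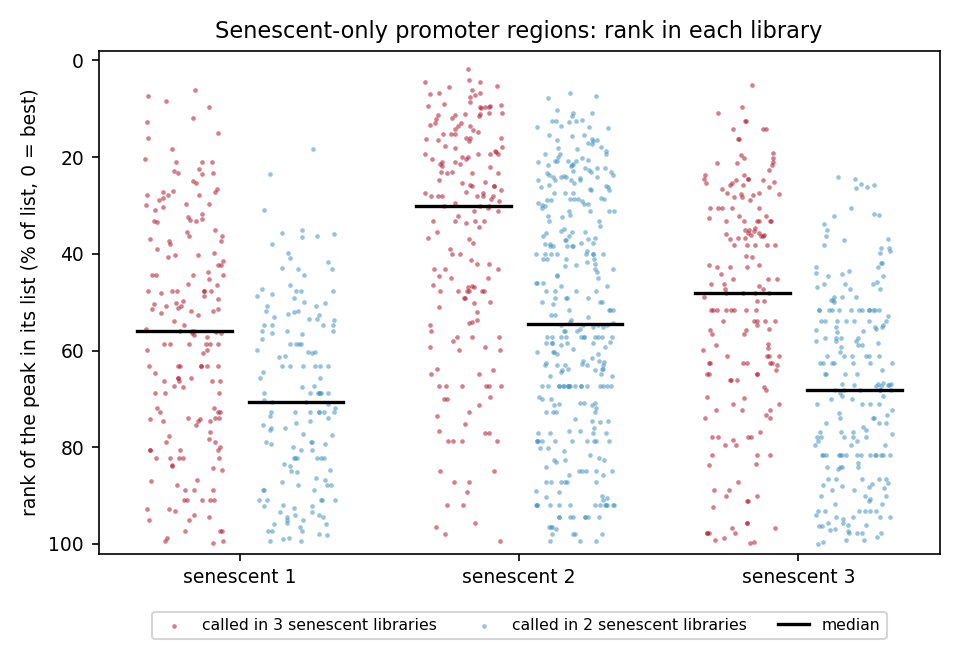
Rank of each member peak in its senescent library as a percent of the list (vertical axis, 0% at the top is the best peak), for members called in 3 senescent libraries (red) and in 2 (blue), 1 point a region, with horizontal spread added for visibility and black lines at the medians. Points spread over most of each list, the members called in 3 libraries have the better medians, and the best member stood at 1.81% of senescent 2.

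Within the 1000 bp that the rule allowed, the median midpoint was 38 bp upstream of the start (quartiles -126 and 55 bp). The median distance in either direction was 115 bp, with an upper quartile of 354 bp, and 344 of 541 (63.6%) had it upstream. The centre of the best peak fell between genes in 267 regions, in an intron in 133, in an untranslated part of an exon in 125 and in coding sequence in 16. At the rule's edge, the farthest members were at Arhgef40 (998 bp), Prdx6 (995 bp) and Sgk1 (995 bp), and the nearest regions left out were at Slc7a1 (1014 bp), Eif4ebp1 (1014 bp) and Bbs12 (1018 bp).

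Their DNA was rich in CpG, as is common at promoters. The median G+C content of the 200 bp around the peak centre was 64% and the median ratio of observed to expected CpG was 0.794, with 422 of 541 (78.0%) above 0.6. Promoter regions called in all 6 libraries had nearly the same share above 0.6, 77.9%, and control-only promoter regions 47.5%.

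The E-box was present in a large minority of the members. CACGTG, which reads the same on both strands, lay in the 200 bp around the peak centre in 194 of 541 regions, or 35.9% (95% Wilson interval 31.9 to 40.0%). At all 41422 protein-coding start sites the share was 5.09%, and in windows 2000 bp to each side of the members it was 2.59%. Control-only promoter regions had it in 3 of 99, or 3.03% (1.04 to 8.53%). Promoter regions called in all 6 libraries had it in 240 of 488, or 49.2% (44.8 to 53.6%), above the interval of the members. Sequence took no part in the rule.

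The share rose with the number of libraries that called a region. Members called in 3 senescent libraries held an E-box in 82 of 184 cases, 44.6% (37.6 to 51.8%), and those called in 2 libraries in 112 of 357, 31.4% (26.8 to 36.4%). Promoter regions called in a single senescent library and no control library, which are not members, held it in 14.8% of 1794. The 602 regions that also had a peak in 1 control library held it in 28.6% (25.1 to 32.3%).

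Sequences close to the E-box were also frequent. CACGCG, searched on both strands, lay in 22.4% of members (19.1 to 26.1%), against 24.2% of the promoter regions called in all 6 libraries, 3.03% of the control-only ones and 9.38% of start sites. Counting the E-box, CACGCG or a further variant, CACGTT, 306 of 541 members (56.6%) held at least 1, against 16.5% of start sites and 11.1% of control-only promoter regions. SP/KLF, GGGCGGG, a site of factors common at CpG islands, lay in 39.4% of members, 38.9% of regions called in all 6 libraries, 14.1% of control-only regions and 27.4% of start sites. NF-Y was read as CCAAT followed by C or G and then by A or G. It lay in 22.0% of members (18.7 to 25.7%) and 26.2% of regions called in all 6 libraries (22.5 to 30.3%). Control-only regions had it in 39.4% (30.3 to 49.2%) and start sites in 12.7%. All motifs were searched on both strands, and a window could hold several, which could overlap.

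AP-1 was less frequent at these promoters than the E-box. It lay in 47 of 541 members, or 8.69% (6.60 to 11.4%), against 3.48% (2.19 to 5.51%) of promoter regions called in all 6 libraries, 2.02% (0.556 to 7.07%) of control-only ones and 2.68% of start sites. The 1047 senescent-only regions away from promoters had it in 30.3% (27.6 to 33.1%), while their E-box share, 38.8% (35.9 to 41.8%), overlapped that of the members. Both sites were found together in 13 members, and 313 of 541 (57.9%) held neither.

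**Figure D3:**
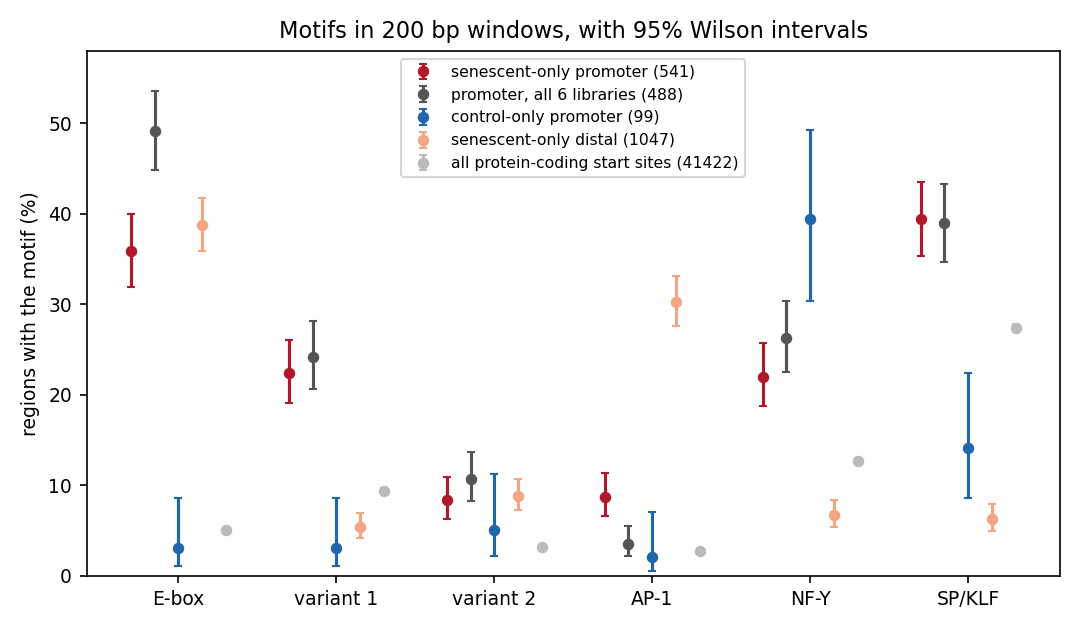
Share of regions (%, vertical axis) whose 200 bp window held each motif (horizontal axis; variant 1 is CACGCG and variant 2 CACGTT), for 5 sets of regions. Points are shares and bars 95% Wilson intervals. Senescent-only promoter regions (red) lie between regions called in all 6 libraries and control-only regions for the E-box, at 35.9%, and at 8.69% for AP-1, far below senescent-only distal regions at 30.3%.

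The E-boxes gathered under the peak. Of 273 E-boxes within 200 bp of the peak centre in members, 168 (61.5%) lay within 60 bp of it, against 210 of 445 (47.2%) in regions called in all 6 libraries. Those regions had wider peaks, and whether width lowered their share was not tested. Per 100 regions they held more E-boxes than members at 0 to 20 bp from the centre, 8.20 against 5.55. Within 60 bp they held fewer only from -60 to -40 bp, 5.33 against 5.91. Taking the E-box nearest the centre in each of the 194 members that had one, the median position was 10 bp upstream of the start site, and 53.6% were upstream. In the 240 regions called in all 6 libraries the median was 91.5 bp upstream and 75% were upstream. The window held 1 E-box in 169 members, 2 in 25 and none in 347.

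**Figure D4:**
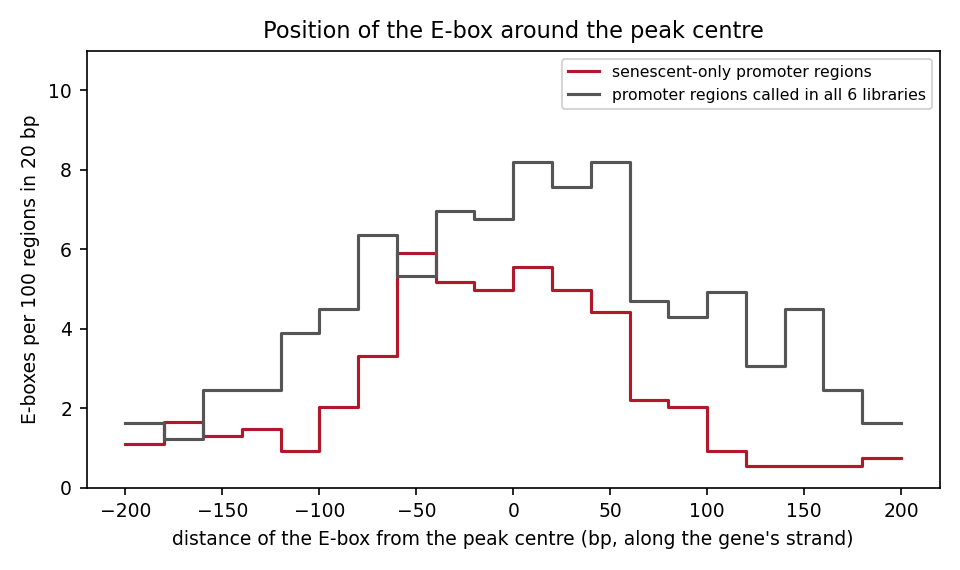
E-boxes per 100 regions (vertical axis) in 20 bp steps of distance from the peak centre (horizontal axis, bp along the gene's strand), for senescent-only promoter regions (red) and promoter regions called in all 6 libraries (grey). The red line is highest within 60 bp of the centre, where 61.5% of the E-boxes of members lie.

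Member peaks were next set beside other promoter peaks of the same senescent library. Against peaks in regions called in all 6 libraries, which ranked far higher, member peaks held the E-box at 43.1% against 51.0% in senescent 1, 34.5% against 48.2% in senescent 2 and 37.0% against 49.2% in senescent 3. The mean difference was -11.3 percentage points. The 3 values rest on largely the same regions and the same genome sequence, so they are not independent, and no test is given. The mean difference came to 0.14 percentage points when only peaks in the lower part of each list, below its median rank, were compared. For AP-1 the mean difference, members minus regions called in all 6 libraries, was 4.99 percentage points. It was not computed for the lower part of each list, so the difference in rank remains in it.

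With each list split by rank into 4 bins of equal size, and set beside all other promoter peaks of the list, member peaks held the E-box more often in 9 of 9 comparisons over the lower 3 bins. In 6 of these the Wilson intervals did not overlap, though in bin 4 of senescent 3 they almost touched. The 9 comparisons rest on largely the same regions, so they are not independent, and the intervals cover counting error only. In bin 2 of senescent 2, for example, 33.8% of 157 member peaks had an E-box against 17.6% of 967 others. In the best bin the member share was higher in 1 of 3 libraries. The other promoter peaks include those called in a single library, which the rule on members shuts out.

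**Figure D5:**
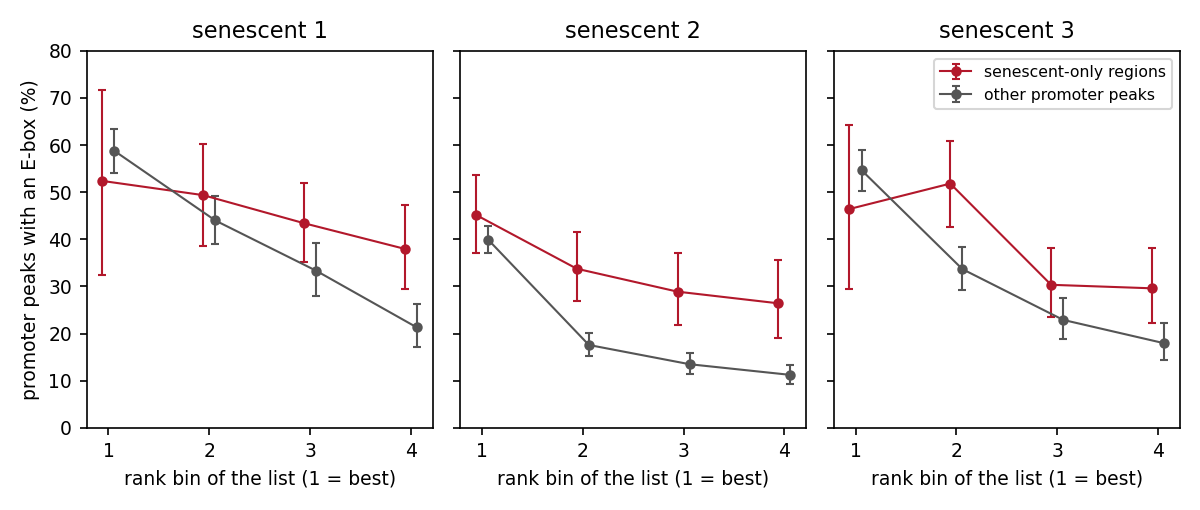
Share of promoter peaks with an E-box (%, vertical axis) by rank bin of the peak list (horizontal axis, bin 1 of 4 is the best) in each senescent library, for peaks in senescent-only regions (red) and all other promoter peaks (grey). Points are shares and bars 95% Wilson intervals. The red points are above the grey ones in 9 of 9 comparisons over bins 2 to 4, which rest on largely the same regions and are not independent.

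Whether the motif content of all promoter peaks differed between senescent and control cells was tested over the 6 libraries, for 14 motifs. In control 1, 2 and 3 the E-box lay in 39.6%, 31.2% and 18.6% of the promoter peaks, and in senescent 1, 2 and 3 in 41.9%, 22.7% and 34.9%. The lowest value of each group was that of its longest list, and the groups overlapped. Control libraries had an E-box in a mean of 29.8% ± 10.6 (SD, n = 3) of their promoter peaks and senescent libraries in 33.2% ± 9.69 (n = 3), which differed by less than the spread within a group (exact permutation test, 2-sided p = 0.7, Benjamini-Hochberg adjusted p = 0.891). The AP-1 values were 3.60%, 4.08% and 3.52% in control 1, 2 and 3 and 4.17%, 5.05% and 5.16% in senescent 1, 2 and 3. For AP-1 the control mean was 3.74% ± 0.304 and the senescent mean 4.79% ± 0.544 (exact permutation p = 0.1, the smallest that 3 against 3 allows, adjusted p = 0.35). AP-1, NF-Y, SP/KLF and RUNX (TGTGGTT followed by A or T, found at 1.20% of start sites and in 1.29% of members) were the 4 of 14 motifs (28.6%) whose values did not overlap between groups, and no adjusted p was below 0.35. Senescent libraries were higher for AP-1 and SP/KLF and lower for NF-Y and RUNX. For RUNX the groups almost touched, at 1.44% in senescent 3 against 1.45% in control 2.

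The members lay near the start sites of 572 protein-coding genes, which is 2.62% of the 21864 annotated and 11.1% of the 5141 with any merged region at a start site. Among the 184 members called in all 3 senescent libraries, Cpeb1, an RNA-binding protein that controls mRNA polyadenylation, had the best mean rank, standing 255th in senescent 1, 177th in senescent 2 and 255th in senescent 3. Its region was the widest at 1327 bp, in an intron, and held 3 E-boxes, the nearest 191 bp from the peak centre. Il15ra, the alpha chain of the interleukin-15 receptor, ranked 352, 445 and 488.5 and held no E-box.

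Next came Prss46, a serine protease gene, ranked 309, 653 and 545, and Sumo2, a ubiquitin-like modifier, ranked 536.5, 445 and 1057. Usp2, a deubiquitinase whose transcript cycles with the clock in many tissues, ranked 406, 708.5 and 1092 and had a second member at another start site, with an E-box. Hoxc13, a homeobox gene, ranked 1123, 593.5 and 632.5. Gnai1, an inhibitory G protein subunit, ranked 500, 678.5 and 1381, with its E-box 2 bp from the peak centre. The other 8 of the best 15 called in all 3 libraries were at Cxcl1, Engase, S100a3, Banf1, Slc2a6, Papola, Pim3 and Susd1. A further 4 members called in only 2 libraries had a better mean rank than the last of these, Mapk6 among them. Of the 15 called in all 3 libraries, 6 held an E-box within 100 bp of the peak centre. The most E-boxes, 3 each, were in the regions of Cpeb1, Klf15, Prr3 and Rragb.

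Of the 24 genes of the core clock and its outputs, 1 had a member, Csnk1e, a kinase that phosphorylates Period proteins. Its region, chr15:79441071-79441394, ranked 1142, 1082.5 and 3187 in senescent 1, 2 and 3 and held no E-box. Of the 17 clock genes with any promoter region this is 5.88%, against 11.1% over all such genes. A promoter region called in all 6 libraries was found for 11 of the 17 (64.7%), against 10.5% of the 5141 genes. Nfil3, a repressor of clock output genes, had 3 senescent-only regions, none at its promoter. Of 12 genes that the study names for BMAL1 binding, 0 had a member, and just 3 of the 12 had any promoter region, so the count says little. That list was chosen on these samples and is not independent evidence. Senescent-only regions away from the start site were nearest to Kdm6b (3 regions), Smad3 (2), Lif (2) and Sall1 (1), from the genes named for more binding in senescent cells, and to Bmpr1b (1) and Col2a1 (1), from those named for less. Kdm6b, Smad3 and Gdnf each also had 1 region called in all 6 libraries, none at the promoter.

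Genes of TGF-beta and BMP signalling had members at 6 of 48 (12.5%). They were Id1 and Id2, inhibitors of basic helix-loop-helix factors, the signal transducer Smad2, the inhibitory Smad7, and the corepressors Tgif1 and Skil. The region of Id1 ranked 2117.5, 2096.5 and 824, that of Smad2 2125, 3254 and 3161.5, and that of Id2 2478.5, 1966 and 4126. Smad2 held an E-box and the other 5 did not. A control peak lay 729 bp from the region of Id1, 795 bp from that of Smad2 and 878 bp from that of Id2, so these promoters were not free of control peaks. Of the 22 genes of the list with any promoter region, the 6 made 27.3%, against the 11.1% over all such genes. These 22 genes are few, and the list was chosen with earlier results of these data known.

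Cytosolic ribosomal protein genes had members at 9 of 76 (11.8%). As 61 of the 76 had some promoter region, the 9 made 14.8% of those, close to the 11.1% of all such genes. Rpl22 ranked highest, at 1699, 1312.5 and 1194, with the AP-1 site printed earlier, and Rpl38, Rpl36 and Rps18 were each called in senescent 2 and 3 but not in senescent 1.

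Among genes of the cell cycle, 5 of 60 had a member, which is 16.1% of the 31 with any promoter region, against 11.1% over all such genes. E2f1, a transcription factor of S phase entry, had 2 E-boxes and ranked 1785 in senescent 2 and 2603.5 in senescent 3, with no peak in senescent 1. Cdt1, which licenses replication origins, ranked 2375 and 2674.5 in the same libraries. Cdkn1a, which encodes the p21 inhibitor of cyclin-dependent kinases, ranked 2196.5 in senescent 1 and 5814.5 in senescent 2, with a control peak 1290 bp away. Aurka, a mitotic kinase, shared its region with Cstf1, and Ccnd2, a D-type cyclin, stood at a mean of 88.6% of its lists. Among DNA damage and p53 genes 2 of 65 had one (5.13% of 39), Gadd45a and Mdm4, both with an AP-1 site.

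Of 52 secreted factors of senescence, 3 had a member. That is 3 of the 13 with any promoter region (23.1%), against 11.1% over all such genes, and 13 genes are few. Cxcl1, a neutrophil-attracting chemokine, was the strongest, at 885.5 in senescent 1, 892 in senescent 2 and 819.5 in senescent 3, at chr5:90890727-90891298, with 2 E-boxes and its nearest control peak 13883 bp away. Vegfa, an angiogenic growth factor, ranked 3269 in senescent 1 and 3254 in senescent 2. Plaur, the urokinase receptor, ranked 6610 in senescent 2 and 4549 in senescent 3, with a control peak 333 bp away.

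MAPK genes had members at 4 of 52, and AP-1 subunits at 2 of 17. Among those with any promoter region the shares were 13.3% of 30 and 16.7% of 12, near the 11.1% over all such genes. Nras, a small GTPase upstream of the pathway, was called in all 3 libraries, ranked 951.5, 3254 and 1546.5, with an E-box and a control peak 293 bp away. Mapk6, an atypical MAP kinase, ranked 989.5 in senescent 1 and 1517.5 in senescent 2, with a control peak 96 bp away. It also had a region called in all 6 libraries 168 bp upstream of its start site, so its promoter was called in control cells too. Mapk12 and Map2k1 were the others. Atf3 and Fosb, both stress-responsive AP-1 subunits, were called in senescent 1 and 2 and held neither an E-box nor an AP-1 site in the window.

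Other E-box binding factors had members at 3 of 26, namely Mxd3, Mxi1 and Tfap4, the first of these with an E-box of its own. Among the 12 with any promoter region this is 25%, against 11.1% over all such genes, and 12 genes are few. The translation list had 3 of 63 (Wars, Eif1a and Eif2b4), the ubiquitin-proteasome list 2 of 60 (Usp2 and Uchl5), oxidative phosphorylation 2 of 76 (Cox5a and Uqcrh) and histone lysine methylation enzymes 2 of 47 (Kdm4c and Smyd5). Collagens and matrix had 1 of 41, Fbln2, and NAD salvage and sirtuins 1 of 21, Nadk. As shares of the genes with any promoter region, these 5 lists from translation to matrix gave 5.56% to 9.09%, and the last 11.1%. BCL2 family genes had 0 of 19 and autophagy genes 0 of 41. With only 9 and 15 of them holding any promoter region, a share of 11.1% would itself give few or none. Wars, Eif2b4, Uchl5 and Aurka each lay beside another gene whose start site was nearer to the shared region.

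A member did not mean that its gene lacked BMAL1 peaks in control cells. A control peak of any library lay within 1000 bp of 102 of 541 members (18.9%), and the median distance to the nearest was 31171 bp. In 92 members (17.0%) the gene had another region within 50 kb called in at least 2 control libraries, against 19.1% of promoter regions called in all 6 libraries and 9.54% of all protein-coding genes. Klf15, a Krüppel-like factor of metabolism, had a second region called in all 6 libraries 1075 bp downstream of the start site, and Klf10 one 144 bp upstream. Nfe2l2, which encodes the oxidative stress factor NRF2, had one 1025 bp downstream. These 3 were chosen after their values were seen. Tnfrsf12a, printed earlier for its AP-1 site, had another region 1754 bp downstream of its start site. That region was called in 3 control and 2 senescent libraries. The 439 members with no control peak within 1000 bp held an E-box in 37.1% (32.7 to 41.7%) and AP-1 in 8.66%, close to the values of all 541.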

How the data were processed

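The 6 BMAL1 libraries were analysed from the deposited peak lists. Per the study's methods, the authors aligned paired reads to mm10 with BWA, removed duplicates with Picard and called peaks by model-based analysis of ChIP-seq at a false discovery rate of 1%. Per the file headers the caller was MACS2, with 1 list per library. The MACS2 version and the use of the input libraries are not given in the sources used here. The deposited score of each peak was read as a −log10 q-value, since no value was below 2 in any list. The 6 input libraries had no peak list used here.

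Peaks were merged, set against GENCODE M21 start sites and searched for 14 motifs on both strands in 200 bp around the best peak centre (Python 3.11.15, NumPy 2.4.6, SciPy 1.17.1). Ranks were taken within each list because scores depend on depth, which is unknown. Scripts were tested on simulated data. Intervals are 95% Wilson intervals, and tests are exact permutations over libraries.

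Members and the 19 gene lists were chosen with earlier results of these data known. The result of 1 list is not reported here. Named genes were the 15 with the best mean rank called in 3 libraries, up to 4 per list, the clock and study lists in full, the 5 with most E-boxes and the 3 on each side of 1000 bp. For the TGF-beta and BMP list and the cell cycle list, every gene with a member was named. Genes named with the printed sequences also came from the best-ranked members with an E-box or an AP-1 site. Alternatives covered score, list length, distance, overlap, motif window and each library left out.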

Additional observations from a re-analysis of the deposited data

How the results depend on the processing

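The set of 541 regions changed in number with several choices. It fell to 275 when only the better-scoring peaks, over each list's median, were kept, 313 at equal list lengths and 184 with calls in all 3 senescent libraries, and ranged from 207 (without senescent replicate 2) to 1100 (without control replicate 3). It stayed between 391 and 661 under the other alternatives, which changed distance, overlap or 1 further library, or asked for no control peak within 1000 bp, except 322 without senescent replicate 3. With a senescent library left out, both remaining ones had to call a region, which by itself lowers the count. Read depth, which is unknown, limits what any missing peak means.

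The E-box share of members, 35.9%, was 47.3% above the median score, 48.2% at equal lengths, 44.6% with 3 calls, 22.9% within 50 bp and 42.9% anywhere in the region, and 32.5% to 47.3% with 1 library left out. The AP-1 share, 8.69%, was 6.26% at a promoter distance of 500 bp, 11.6% at 3000 bp, 12.0% with 3 calls and 4.99% within 50 bp, and 6.82% to 10.6% with 1 library left out. The share of members whose gene had another control region, 17.0%, was 5.45% above the median score, 10.9% at equal lengths and 13.6% at 500 bp, and 9.27% to 18.9% with 1 library left out, where a control library left out also leaves fewer libraries to call such a region.

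The senescent minus control difference in E-box share of promoter peaks, 3.37 percentage points, turned to -2.25 without control replicate 3 and -0.973 without senescent replicate 1, reached 8.60 without senescent replicate 2, and was 10.1 at equal lengths (exact permutation p = 0.2). Its direction thus rested on single libraries. The AP-1 difference stayed positive under all 14 alternatives, from 0.537 to 2.37. With a replicate block the E-box difference was 3.37 (exact sign permutation p = 0.75) and the AP-1 difference 1.06 (p = 0.25). Calls of same-numbered libraries deviated together with correlations of -0.122, 0.142 and 0.113, so the numbers were not taken to pair the libraries. The member minus shared difference in E-box share stayed negative under 14 alternatives, from -25.7 to -1.54. The -25.7 came from searching the whole peak, where the shared peaks were wider and so longer to search. The difference came to 0.14 among peaks in the lower part of each list. That alternative was chosen after seeing the data, as was the distance to a control peak. The causes of these changes were not tested.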
